A study of Mus musculus with 2 samples.

Results

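Mir103-1, Mir103-2 and Mir107 are the mouse microRNA genes of the miR-103 and miR-107 family, and each lies in an intron of a pantothenate kinase gene. They were taken from the count tables by their GENCODE M21 symbols, which picked 3 of the 2202 microRNA genes. The tissue was left cerebral cortex, taken at an age of 4 days from females of the F1 hybrid strain B6CASTF1/J, and small RNAs under 30 bases were sequenced. The study has 1 group of 2 biological replicates, with 1 library for each animal, under a donor record that the animals share. Neither a treatment nor a second genotype is named, so that no test between conditions exists. Counts of microRNA genes came to 3555469 reads in replicate 1 and 2761003 in replicate 2, and levels are given as CPM, a gene's count scaled to a common total of these counts.

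Pantothenate kinases carry out the first step of coenzyme A synthesis from vitamin B5, and the mouse genes Pank1, Pank2 and Pank3 each host 1 of the hairpins. A hairpin is cut into a 5p and a 3p arm, and the loaded arm pairs with target messages mainly through its seed, bases 2 to 8. miR-103-3p and miR-107-3p are known to repress Dicer1, which encodes the enzyme that cuts hairpins, and caveolin-1 in the control of insulin sensitivity. In neural cells miR-107 is also known to repress the beta-secretase gene Bace1.

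The 3 hairpins are shown first because the counts hold only reads that mapped to 1 place, and the differences between these sequences set which reads can be counted. They are given 5′ to 3′ from RefSeq on GRCm38.p6, a patch release of the assembly called mm10, with the 3p arm in capitals. Mir107 (ENSMUSG00000065594.1) is at chr19:34820687-34820773 on the minus strand, Mir103-2 (ENSMUSG00000065563.1) at chr2:131288052-131288137 on the plus strand and Mir103-1 (ENSMUSG00000065553.1) at chr11:35782396-35782481 on the plus strand.
Mir107: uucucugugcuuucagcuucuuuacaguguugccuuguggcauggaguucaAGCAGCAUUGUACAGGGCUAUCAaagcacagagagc
Mir103-2: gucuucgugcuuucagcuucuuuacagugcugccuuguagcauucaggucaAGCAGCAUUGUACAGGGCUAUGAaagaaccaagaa
Mir103-1: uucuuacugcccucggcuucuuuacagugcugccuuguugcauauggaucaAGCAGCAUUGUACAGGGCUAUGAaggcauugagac

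The hairpins were 87, 86 and 86 bases long. Mir107 was identical to Mir103-2 over 83.9% of aligned positions and to Mir103-1 over 80.5%, and Mir103-1 and Mir103-2 matched over 80.2%. In all of them the 5p arm ran from base 15 to 37 and the 3p arm from base 52 to 74, with 14 bases between the arms. Their predicted folding energy was -41.2 kcal/mol for Mir107, -31.8 kcal/mol for Mir103-2 and -35.8 kcal/mol for Mir103-1.

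The mature arms, with the seed in capitals, show how little separates the loci.
mmu-miR-107-3p: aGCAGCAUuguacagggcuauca
mmu-miR-103-3p: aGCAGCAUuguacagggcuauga
mmu-miR-107-5p: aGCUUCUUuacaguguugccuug
mmu-miR-103-2-5p: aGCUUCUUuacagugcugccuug
mmu-miR-103-1-5p: gGCUUCUUuacagugcugccuug

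miR-103-3p is the same 23 bases at Mir103-1 and Mir103-2. It differs from miR-107-3p at 1 base, G22C, with positions counted from 1 at the 5′ end of the arm, the first-named arm's base first. The 3p seed occurred in no other of the 1679 mature names of the RefSeq table, and the 5p seed only in the 3 arms shown. The 5p arms differ by G1A between miR-103-1-5p and miR-103-2-5p, and by C16U between miR-103-2-5p and miR-107-5p.

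All 3 hairpins lie at a like place in their host genes. In the principal transcript of each host, as M21 marks it, the hairpin was in intron 5 of 6 and on the strand of the host. Mir107 lies 326 bases past the upstream exon of Pank1, in an intron of 7282 bases. Mir103-2 lies 454 bases past that exon of Pank2, in an intron of 5801 bases, and Mir103-1 lies 688 bases past it in Pank3, in an intron of 1740 bases. No exon of the hosts covered a hairpin, and M21 had no gene on the opposite strand at any of them. The host messages were not measured here.

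**Figure D1:**
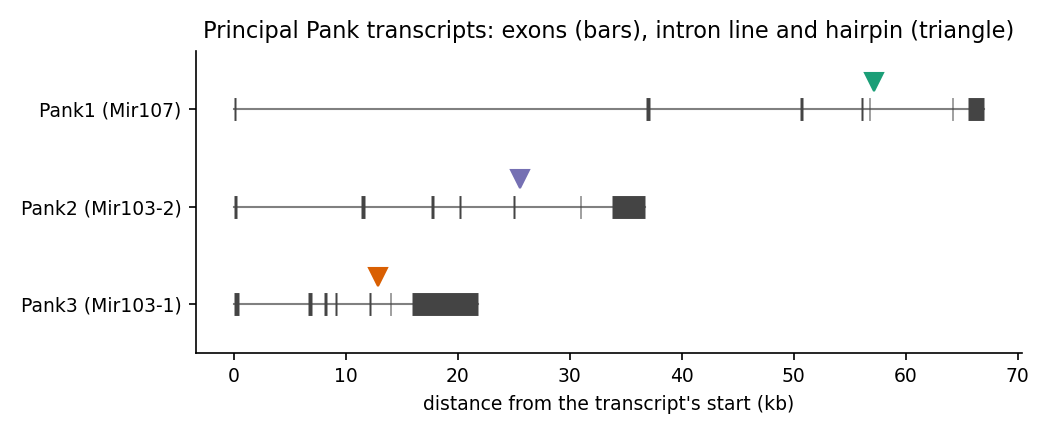
Exons (bars), introns (line) and hairpin position (triangle) in the principal transcript of Pank1, Pank2 and Pank3, by distance from the transcript's start in kb. Each hairpin sits in intron 5 of 6, between 326 and 688 bases past the upstream exon.

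A read that begins at the first base of the 3p arm cannot be told between all 3 loci at 18 to 21 bases. From 22 bases on such a read of miR-107-3p is specific to Mir107. Between Mir103-1 and Mir103-2 the first difference comes after the arm's end, at G25A. Any such read of miR-103-3p up to 24 bases is therefore found at both Mir103 loci. Reads of 18 to 24 bases that begin at the first base of a 5p arm were specific to their locus at all 3 genes. Read lengths and arms are not given in the count tables, so the arm that produced a count was not determined.

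Over all windows of 18 to 24 bases in each hairpin, 415 of 469 (88.5%) were found at Mir107 alone, 371 of 462 (80.3%) at Mir103-2 alone and 391 of 462 (84.6%) at Mir103-1 alone. These windows were compared by exact match, on both strands, with the other members, 1002 other RefSeq hairpins and the M21 transcripts of genes other than the members and hosts. Only 6 windows matched such a transcript, and none matched another hairpin. The rest of the genome was not searched. The windows were taken along the whole hairpin, loop and flanks included, so their shares are not shares of the reads made from it. The CAST parent of the hybrid strain may also differ from this C57BL/6J sequence, which was not tested.

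**Figure D2:**
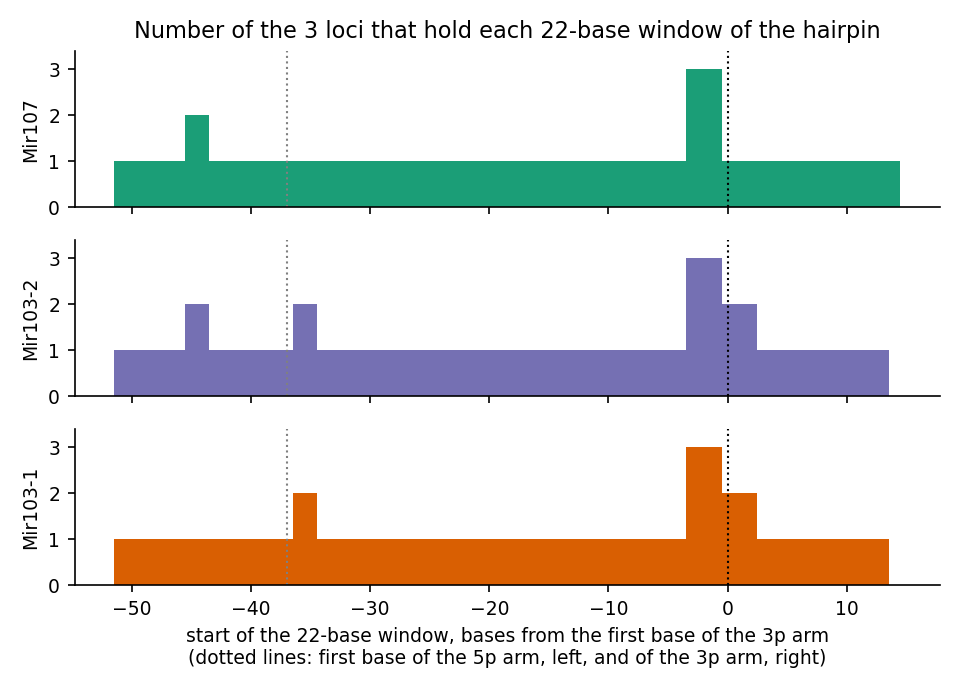
Number of the 3 loci that hold each 22-base window of a hairpin, by the window's start in bases from the first base of the 3p arm. Windows that start just before that arm are held by all 3 loci, and those that start on its first base are held by Mir103-1 and Mir103-2 but not by Mir107.

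In uniquely mapped counts Mir107 was far above both Mir103 loci in each animal. It had 10190 counts in replicate 1 and 12681 in replicate 2, or 2866 and 4593 CPM (mean 3729 ± 1221, SD, n = 2). That placed it 55th of all 2202 genes by mean level, and 21st of the 733 that lie in introns of protein-coding genes on the host's strand. It made up 0.287% of microRNA counts in replicate 1 (95% Wilson interval 0.281 to 0.292) and 0.459% in replicate 2 (0.451 to 0.467). CPM is given per gene and was not divided by hairpin length, since a read of this size covers 1 arm. All intervals here cover counting error only.

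Mir103-2 had 99 counts in replicate 1 and 208 in replicate 2, or 27.8 and 75.3 CPM (mean 51.6 ± 33.6, SD, n = 2), and was 256th. Mir103-1 had 24 and 55 counts, or 6.75 and 19.9 CPM (mean 13.3 ± 9.31, SD, n = 2), and was 320th. In uniquely mapped counts the order was thus Mir107, Mir103-2 and Mir103-1 in both animals, and no CPM of one locus overlapped those of the next. A read from the start of the 3p arm is specific to Mir107 from 22 bases, but to a Mir103 locus only from 25. How much this adds to the gap between Mir107 and the Mir103 loci was not tested. Each of the 3 passed the detection minimum of 2 CPM in both libraries, which 20.4% of all microRNA genes passed. On the opposite strand all 3 had 0 counts in both libraries, so that the counts of either strand were the same as those on the annotated one. That leaves room for at most 3 counts, worth 0.844 CPM in replicate 1 and 1.09 CPM in replicate 2.

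**Figure D3:**
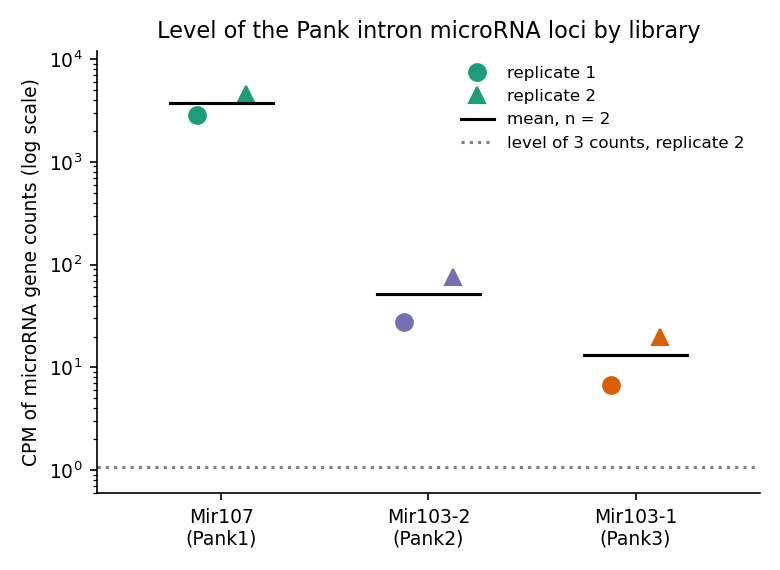
Level of Mir107, Mir103-2 and Mir103-1 in each library, in CPM on a log axis, with circles for replicate 1, triangles for replicate 2 and a line for the mean of both. In these uniquely mapped counts Mir107 stands at 2866 and 4593 CPM, and neither Mir103 locus exceeds 75.3 CPM.

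Within a library the loci can be set against each other without any scaling between libraries. Mir107 had 103 times the counts of Mir103-2 in replicate 1 (95% exact interval 84.5 to 127) and 61.0 times in replicate 2 (53.2 to 70.3). Those intervals do not overlap, so the ratio of these loci differed between the libraries by more than counting error. Mir107 had 425 times the counts of Mir103-1 in replicate 1 (285 to 663) and 231 times in replicate 2 (177 to 306). The intervals of this pair overlap, which does not show that its ratio was the same in both libraries.

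The relation of the 2 Mir103 loci was more even between the animals. Mir103-2 had 4.12 times the counts of Mir103-1 in replicate 1 (exact interval 2.62 to 6.74) and 3.78 times in replicate 2 (2.80 to 5.19). The intervals overlap widely and both lie above 1. Together the Mir103 loci gave 123 of the family's 10313 counts in replicate 1, or 1.19% (Wilson interval 1.00 to 1.42), and 263 of 12944 in replicate 2, or 2.03% (1.80 to 2.29).

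These ratios and shares count locus-specific reads and are not the amounts of miR-103-3p and miR-107-3p. Reads that mapped to several places were 45.8% of all reads in replicate 1 and 41.0% in replicate 2, and none of them was given to a gene. How many came from miR-103-3p was not determined.

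All 3 loci had higher levels in replicate 2. With libraries scaled by the trimmed mean of M-values (TMM), the log2 ratio of replicate 1 over replicate 2 was -1.58 for Mir103-1 (exact interval -2.36 to -0.88), -1.47 for Mir103-2 (-1.83 to -1.12) and -0.72 for Mir107 (-0.76 to -0.68). Both Mir103 loci were thus past 2-fold, at 2.99-fold and 2.77-fold higher in replicate 2, and Mir107 was 1.64-fold higher. The interval of Mir103-1 includes differences under 2-fold. With a single library from each animal these differences could not be tested.

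The ratios of other genes put these values in scale. Of 525 genes that reached 10 counts over both libraries, 23.8% were 2-fold or more apart in either direction, and 11.2% were so with the higher level in replicate 2. Their log2 ratios had a median of -0.0067, quartiles of -0.40 and 0.45 and an SD of 1.03. Of these genes, 21 had a ratio below that of Mir103-1, 29 below that of Mir103-2 and 77 below that of Mir107. A minimum summed count of 100 left Mir103-2 as the only member past 2-fold, since Mir103-1 does not reach that sum, among 308 genes of which 16.2% were past it. At a limit of 1.5-fold all 3 members were past it, as were 37.7% of the 525 genes.

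**Figure D4:**
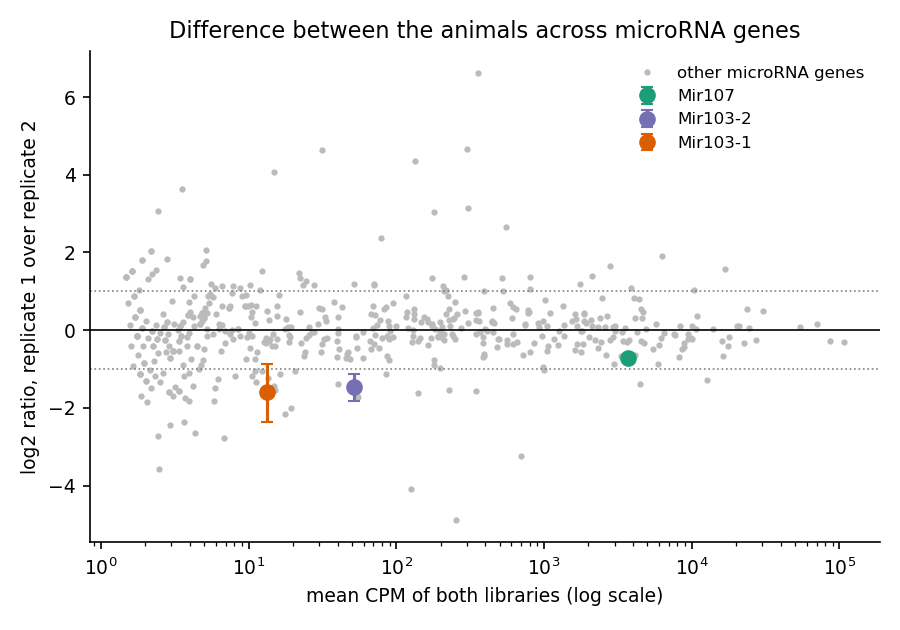
Log2 ratio of replicate 1 over replicate 2 against mean CPM (log axis) for genes that reached 10 counts over both libraries. Grey points are other microRNA genes, bars on the members are 95% exact counting intervals and dotted lines mark 2-fold, with Mir103-1 at -1.58, Mir103-2 at -1.47 and Mir107 at -0.72.

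The same libraries differed in several markers of other cells. Detected here means 2 CPM or more in both libraries, which 20.4% of all 2202 genes reached. The red cell genes Mir451a, Mir144 and Mir486, 3 of 3 detected, had sums of 60.2 CPM for replicate 1 and 550.2 CPM for replicate 2. Most of that gap was Mir451a with 16.9 and 491 CPM, while Mir144 had 6.47 and 28.6 CPM and Mir486 had 36.8 and 30.4 CPM. The endothelial Mir126a had 12842 and 19723 CPM. The epithelial Mir200a, Mir200b, Mir200c, Mir141 and Mir429, 4 of 5 detected, went the other way with sums of 1930.0 and 93.8 CPM. So did the sum of the 5 choroid plexus and ciliated cell genes, all detected, with 5222 and 2793 CPM. Among those 5, Mir211 was slightly higher in replicate 2 (3.94 and 5.07 CPM). The part of these cells in the ratios of the family was not tested. In bulk tissue fewer cells of a type and less RNA per cell cannot be told apart. Of 13 cortex neuron and progenitor genes 9 were detected. Mir124a-1, Mir124a-2, Mir124a-3 and Mir9-2 were not, and reads shared between copies are in no gene's count. The 13 genes had sums of 37612 and 29264 CPM and went both ways. Mir137 had 14397 and 13672 CPM, Mir128-1 and Mir128-2 were higher in replicate 1, and Mir138-1 (2155 and 3832 CPM) and Mir138-2 (688 and 1292 CPM) were higher in replicate 2. Of 5 muscle genes 1 was detected, Mir206 with 35.2 and 14.1 CPM, and the 4 copies of Mir1a and Mir133a had no uniquely mapped read. Other lists differed less between the libraries. The 4 microglia and leukocyte genes, all detected, had sums of 514 and 472 CPM and went both ways. The liver gene Mir122 had 63.3 and 78.6 CPM.

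The wider group to which miR-103 and miR-107 are assigned shares the letters AGCAGC at or next to the 5′ end. In miR-103-3p and miR-107-3p they begin at base 1, and in the relatives shown here, with AGCAGC in capitals, at base 2.
mmu-miR-15a-5p: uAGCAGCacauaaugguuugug
mmu-miR-16-5p: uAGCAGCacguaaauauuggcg
mmu-miR-322-5p: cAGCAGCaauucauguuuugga

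Within the first 8 bases, 13 of the 1679 mature names held AGCAGC. They include miR-103-3p and miR-107-3p themselves, and miR-6342, miR-6353 and miR-6419, which are not in the group as listed here. Of the group's other genes listed for this comparison 11 were in the tables, of which Mir497b and Mir6715 have no such arm in RefSeq. In all, 8 of the 11 passed 2 CPM in both libraries, and Mir195b, Mir497b and Mir6715 did not. Of all 2202 genes 20.4% passed. The median of log2(CPM + 1) was 5.72 over the 3 Pank loci, 9.65 over the 11 genes and 0 over all 2202 genes.

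Mir322 led these relatives with 3150 CPM in replicate 1 and 3708 CPM in replicate 2, a range that lies within that of Mir107. Mir15b had 1863 and 1367 CPM and Mir15a 1303 and 1414 CPM. Mir16-1 had 676 and 1337 CPM and Mir16-2 136 and 224 CPM, and these share miR-16-5p, so that their counts leave out shared reads. Mir497 had 1105 and 998 CPM, Mir195a 1171 and 438 CPM and Mir503 147 and 116 CPM. Both Mir103 loci lay below all 8 detected relatives in each library, and their counts too leave out the reads that they share. Mir107 lay below only Mir322 in replicate 1 and below none in replicate 2. Past 2-fold between the animals were Mir16-1, higher in replicate 2 (log2 ratio -1.02), and Mir195a, higher in replicate 1 (1.38). They were among 9 relatives that reached 10 counts over both libraries, whose median log2 ratio was -0.16. By the same minimum 125 of all 525 genes (23.8%) were past 2-fold, so such differences were not particular to this group.

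**Figure D5:**
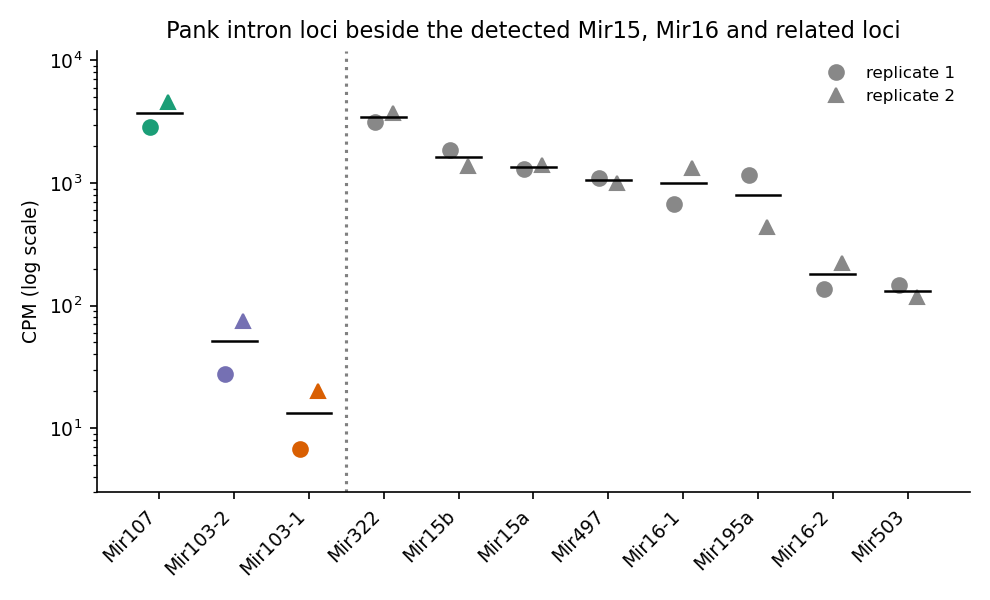
CPM (log axis) of the 3 Pank intron loci, left of the dotted line, and of the 8 detected relatives, with circles for replicate 1, triangles for replicate 2 and lines for means. Mir107 and Mir322 stand at the top, and in these uniquely mapped counts Mir103-2 and Mir103-1 lie below all the relatives shown.

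The Mir26 and Mir128 families also have copies within host genes. In the Mir26 family of the Ctdsp genes, Mir26a-1 and Mir26a-2 share miR-26a-5p, and a read from the start of that arm needs 26 bases to be specific to a locus. Mir107 held 98.8% of the Pank family's counts in replicate 1 and 98.0% in replicate 2, and Mir26b, which shares no arm either, held 95.4% and 99.6% of the Mir26 family's. Mir26a-1 had 7.59 and 3.98 CPM, and Mir26a-2 had 257 and 12.0 CPM.

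A read from the start of miR-103-3p becomes specific at 25 bases, and one of miR-128-3p, which the Mir128 copies in R3hdm1 and Arpp21 share, at 22. Mir128-1 had 14073 and 6719 CPM and Mir128-2 had 5607 and 3127 CPM, so that the lower locus held 28.5% and 31.8% of the pair's counts. Of the genes with mature arms in RefSeq, 94 had an arm identical at another locus. Among these 46 were detected, at a median of 127 CPM. The other 924 had arms at 1 locus only, and 364 of them were detected, at a median of 87.8 CPM. By the same minimum 450 of all 2202 genes (20.4%) were detected. Both Mir103 loci lay below either median. No test was made of how sequence sharing relates to these levels.

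The genes nearest in level over both libraries were found by the larger of the 2 absolute differences in log2(CPM + 1). Mir107 was closest to Mir320 (difference 0.19, with 3275 and 4993 CPM), Mir23a (0.20, with 2594 and 4009 CPM) and Mir143 (0.22, with 3337 and 3994 CPM). Mir103-2 was closest to Mir592 (0.16, with 26.2 and 84.4 CPM), then to Mir181b-1 (0.38) and Mir3547 (0.39). Mir103-1 was closest to Mir5113 (0.20, with 7.88 and 22.5 CPM), followed by Mir302d and Mir7069 (both 0.24). With 2 libraries such likeness describes only these samples.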

How the data were processed

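The authors deposited a table of raw read counts over microRNA genes for each library, on mm10 with GENCODE M21 per their notes. Which aligner, counter or filter made it is not given in the sources used here. The tables have no column names, and their columns were read from the values as either, annotated and opposite strand. Annotated-strand counts were used, totals naming no gene stayed out of library sizes, and CPM was computed here from the deposited counts. Reads that matched no single place are in no gene's count.

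Ratios between the replicates used TMM factors from edgeR 4.0.16 on genes with 10 or more counts over both libraries, with 0.5 added to each count. The steps were also run on simulated counts with balanced changes and counting error only. That setting is simpler than these libraries, so it does not check the ratios given here. Intervals are 95% Wilson or exact (Clopper-Pearson). A chi-square of 322 per degree of freedom over 525 genes showed that the tables hold different libraries. Folding used RNAfold 2.7.2. Named genes are the members, the Mir15, Mir16 and related genes, the Mir26 and Mir128 loci and the 3 genes nearest each member in level, besides cell type markers from lists, of which those named singly were picked after their values were seen. The members and lists were chosen with earlier results of these data known. Alternatives changed strand, scaling, denominator, minima, window length and left out each library.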

Additional observations from a re-analysis of the deposited data

How the results depend on the processing

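The sign of all 3 ratios between the animals held under every alternative run for them. Those alternatives changed only the scaling, the added count and the strand, and their shifts were small beside the ratios. They are therefore no real check on the sign. The alternatives run for the order of the 3 loci only restate values given above. They were counts of both strands, here the same as those on the annotated strand, and each library alone. The handling of reads that map to several places was not varied. With CPM taken over all reads in place of microRNA counts, mean levels were 1074 for Mir107, 14.7 for Mir103-2 and 3.79 for Mir103-1. The log2 ratio of Mir107 was -0.68 with library size alone and -0.66 with scaling factors from all genes, the first at the upper bound of the counting interval of the TMM value and the second above it. A summed count of 100 or more left 1 member past 2-fold in place of 2, by removing Mir103-1 from the genes tested, and a limit of 1.5-fold gave 3. With 22-base windows only, 92.4% of those of Mir107, 84.6% of Mir103-2 and 87.7% of Mir103-1 were at 1 locus. Leaving out each replicate, mean levels ranged from 2866 to 4593 CPM for Mir107, from 27.8 to 75.3 for Mir103-2 and from 6.75 to 19.9 for Mir103-1. A minimum of 10 CPM left 2 of the 3 detected, without Mir103-1, and the share of all genes that pass it was not determined. The 24 and 99 counts of the Mir103 loci in replicate 1 limit their precision. No paired analysis was possible because there is only 1 group.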
